A study of Mus musculus with 4 samples.

Results

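T cell and NK cell genes were followed in mammary tumours of MMTV-Neu mice with and without AXL, a TAM-family receptor tyrosine kinase. The set was a list of 37 gene symbols, matched by Ensembl gene identifier to 37 of the 38293 gene rows in each count table. These symbols were chosen with earlier results of these data known. Comparisons of the members with all genes are therefore not those of an independently chosen set. The set was divided by role into 7 genes of the T cell receptor complex with its coreceptors, 19 genes of T cell signalling and surface, and 11 NK cell and cytotoxic genes. The low-count filter left 25 of the 37 among 14330 genes tested, and the other 12 are given by their counts.

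T cells recognise peptide antigens through a clonal receptor that signals through the CD3 chains and the zeta chain (Cd247), with CD4 or CD8 as coreceptor. The kinases LCK and ZAP70 and the adaptor LAT carry the signal onward. NK cells lack that receptor and balance activating receptors such as NKG2D (Klrk1) and NKp46 (Ncr1) against inhibitory ones. Both cytotoxic T cells and NK cells kill by releasing perforin and granzymes, and both infiltrate solid tumours.

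Both groups were tumours of FVB-strain mice that carry the Neu oncogene under the mouse mammary tumour virus promoter, so the AXL KO and WT groups share the transgene and differ in the labelled Axl genotype. Each group had 2 libraries of total tumour RNA, and no source used here gives the age or the kind of Axl allele. The libraries held 18929743 to 33131739 reads in genes, at which depth 3 counts stand for 0.0899 to 0.16 CPM (read counts scaled by library depth, with TMM factors). Throughout, paired values are given as replicate 1, then replicate 2. Axl itself reached 61.7 and 35.2 CPM in the WT libraries, against 4.75 and 4.89 CPM in the AXL KO libraries, 10.05-fold lower and on the side the labels give. Even so, its edgeR adjusted p was 0.9997 in this 2 against 2 design, while DESeq2 gave an adjusted p of 2.23e-13. The labels do not say whether replicates are separate animals, so a p-value here reflects only how far these libraries spread, which may be technical. The library descriptions start alike for 3 libraries and differently for AXL KO replicate 2, so a fit without that library is the fit within the first 3.

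WT replicate 2 stood apart from the other 3 libraries in these genes. It was the lowest library for 30 of the 37 members and for 23 of the 25 tested (92.0%), against 35.8% of all genes tested. Summed over members, its T cell receptor complex level was 15.1% of that in WT replicate 1 and its NK and cytotoxic level 9.63%. Gzmb alone made up 66.2% of the NK and cytotoxic sum in WT replicate 1. The other genes of that group summed to 11.4 CPM there and to 2.25 CPM in WT replicate 2. Most differences are therefore also given without WT replicate 2. In bulk tumour RNA, fewer cells of a type and less RNA per cell cannot be told apart.

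**Figure D1:**
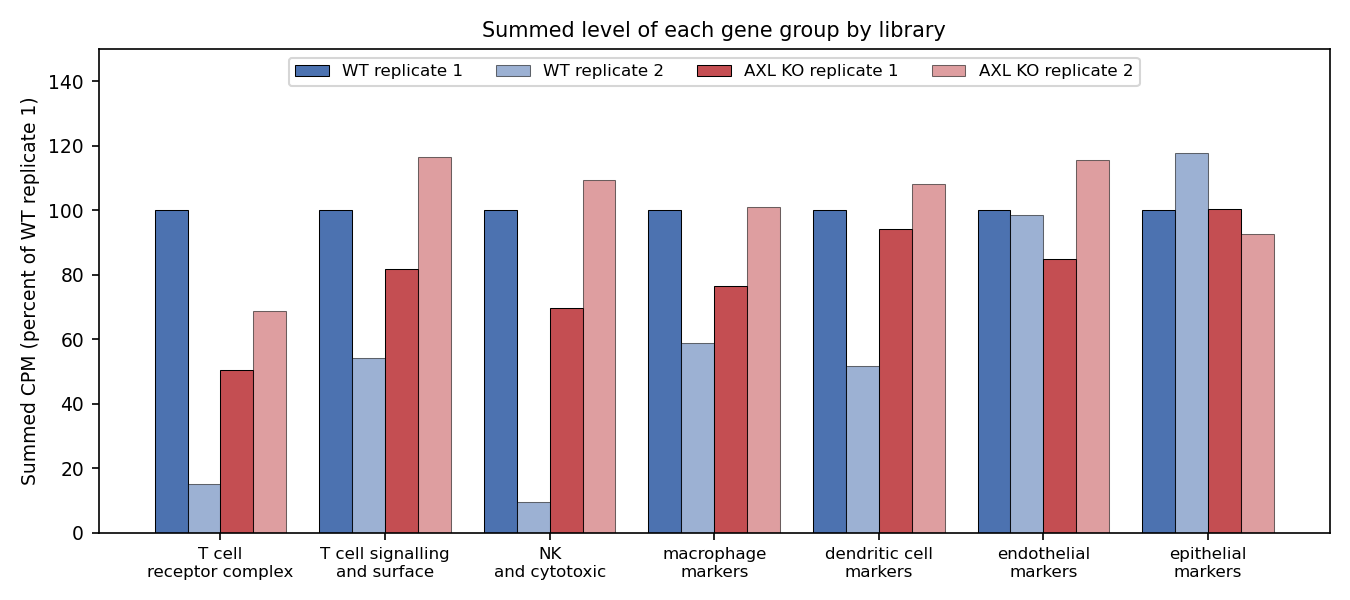
Summed CPM of the 3 role groups and of 4 marker lists of other cell types in each library, as a percent of WT replicate 1 (bars from 0). The WT replicate 2 bars stand at 15.1%, 54.3% and 9.63% for the role groups, at 58.9% for macrophage markers and at 118% for epithelial markers. Gzmb made up 66.2% of the NK and cytotoxic sum in WT replicate 1.

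None of the tested members differed between the genotypes by edgeR's quasi-likelihood fit over all genes. With a Benjamini-Hochberg adjusted p under 0.05 as the threshold, 0 of 25 members and 0 of 14330 genes (0.0%) were called, and the adjusted p of each tested member was 0.9997. DESeq2 also called 0 of the 25, against 16 of all genes (0.112%). At an unadjusted p under 0.05 in edgeR there was 1 member, Gzmc, higher in AXL KO, beside 165 higher genes of all tested (1.15%). Gzmc reached the filter cutoff in its AXL KO libraries alone and so had to be high there to be tested, which its p and its place among the members without overlap do not allow for. Of the 25, 20 had a positive log2 difference (AXL KO minus WT) and 5 a negative one, with a median of 0.56 against −0.0019 over all genes tested. When WT replicate 2 was left out the split was 9 positive to 16 negative, with a median of −0.14. Among the 3 libraries whose descriptions start alike, that is with AXL KO replicate 2 left out, 14 were positive and the median was 0.18. The T cell receptor complex median then turned to −0.12, with Cd3e at −0.34, that of signalling and surface was 0.087, with Tbx21 at −1.05, and that of NK and cytotoxic genes was 0.85, with Gzmb at −0.17.

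Between-group order showed the same dependence on the WT library compared. For 3 tested members the lower AXL KO value exceeded the higher WT value, against 14.7% of all genes tested, and for 1 the reverse held, against 14.5%. Both lay above WT replicate 2 for 24 of the 25, against 40.1% of all genes, which largely restates that this library was lowest. Set against WT replicate 1 alone, both lay above it only for the 3 members already counted. Both lay below it for 10 of the 25, not far from the 33.7% of all genes.

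The start regions of 5 members described below are shown. Klrk1 and Gzmc lay above WT in both AXL KO libraries, an order that 14.7% of all genes tested also had. Gzmb was the most abundant cytotoxic gene, and Cd3g and Cd8a stand for the T cell receptor complex. Each sequence is the 250 bases before the RefSeq start in GRCm38.p6, 5′ to 3′ on the gene's strand. Capitals mark matches on either strand to the RUNX motif TGNGGT, the T-box motif GGTGTGA, the ETS motif AGGAAG, the interferon gamma element (GAS) TTCNNNGAA and the interferon-stimulated element (ISRE) GAAANNGAA.
Klrk1, chr6:129623865-129624114, minus strand: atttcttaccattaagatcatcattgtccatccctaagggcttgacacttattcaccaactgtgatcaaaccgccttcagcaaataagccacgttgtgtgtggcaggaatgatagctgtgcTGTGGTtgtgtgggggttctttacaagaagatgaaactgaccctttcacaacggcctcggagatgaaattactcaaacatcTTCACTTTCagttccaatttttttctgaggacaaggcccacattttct
Gzmc, chr14:56234658-56234907, minus strand: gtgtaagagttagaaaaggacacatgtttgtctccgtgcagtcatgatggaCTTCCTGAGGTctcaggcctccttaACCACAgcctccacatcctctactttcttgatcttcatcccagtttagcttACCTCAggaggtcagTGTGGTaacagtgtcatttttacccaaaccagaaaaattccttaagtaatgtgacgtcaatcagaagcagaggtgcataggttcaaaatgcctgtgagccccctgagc
Gzmb, chr14:56262335-56262584, minus strand: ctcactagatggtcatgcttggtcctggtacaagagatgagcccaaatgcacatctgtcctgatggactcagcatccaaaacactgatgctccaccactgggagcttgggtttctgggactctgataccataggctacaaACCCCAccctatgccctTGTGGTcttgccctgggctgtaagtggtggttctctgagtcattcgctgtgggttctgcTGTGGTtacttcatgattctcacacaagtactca
Cd3g, chr9:44980432-44980681, minus strand: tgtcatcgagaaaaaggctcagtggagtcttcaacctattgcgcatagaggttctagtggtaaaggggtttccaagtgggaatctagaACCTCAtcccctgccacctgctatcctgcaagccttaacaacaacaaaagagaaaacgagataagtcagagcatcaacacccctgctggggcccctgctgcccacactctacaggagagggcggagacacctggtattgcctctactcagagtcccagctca
Cd8a, chr6:71373177-71373426, plus strand: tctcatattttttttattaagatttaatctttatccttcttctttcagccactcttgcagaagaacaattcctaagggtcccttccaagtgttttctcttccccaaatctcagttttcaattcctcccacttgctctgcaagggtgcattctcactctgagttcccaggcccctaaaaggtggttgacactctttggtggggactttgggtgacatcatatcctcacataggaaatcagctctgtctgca

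The Klrk1 window held a RUNX match beginning 129 bases and an ISRE match beginning 48 bases before the start. The Gzmc window held 4 RUNX matches and 1 ETS match, and its first RUNX match overlaps the ETS match. In the Gzmb window there were 3 RUNX matches, in the Cd3g window 1, and in the Cd8a window no match to the 5 motifs. For Gzmb the RefSeq start lies 74 bases from the GENCODE start. RefSeq windows were found for 27 of the 37 members, 34 windows in all, with a RUNX match in 58.8% and an ETS match in 61.8%. Over all 32536 windows of that length these shares were 40.2% and 29.6%. Matches to the GAS, ISRE and T-box letters were in 14.7%, 8.82% and 2.94% of member windows and in 7.04%, 7.15% and 3.33% of all windows. A match describes letters only and shows no binding.

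The CD3 chains were all lowest in WT replicate 2, and the other 3 libraries lay far above it. Cd3g, the gamma chain, had WT values of 5.09 and 0.576 CPM and AXL KO values of 3.58 and 5.36 CPM. Cd3e, the epsilon chain, reached 2.01 and 0.105 CPM in the WT libraries, against 0.854 and 1.41 CPM in the AXL KO libraries. Cd3d, the delta chain, had WT values of 0.701 and 0.0523 CPM, the latter from 1 count, and AXL KO values of 0.641 and 0.629 CPM. The groups overlapped for all 3 genes, with only AXL KO replicate 2 for Cd3g above the higher WT value. Their log2 differences were 0.65 ± 0.92 (SE) for Cd3g, 0.10 ± 1.07 for Cd3e and 0.70 ± 0.94 for Cd3d, so none exceeded its standard error. Dropping WT replicate 2 gave −0.17, −0.78 and −0.14, and dropping WT replicate 1 gave 2.96, 3.41 and 3.47. The 3 genes lie together on chromosome 9 of GRCm38, with Cd3d (44981786 to 44987339, plus strand) and Cd3g (44969572 to 44980431, minus strand) read in opposite directions from starts 1355 bases apart.

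The coreceptor genes were highest in WT replicate 1. Cd4, the helper T cell coreceptor, had WT values of 6.68 and 1.2 CPM and AXL KO values of 2.14 and 3.39 CPM. Cd8a, the alpha chain of the cytotoxic T cell coreceptor, reached 4.3 and 0.366 CPM in the WT libraries, against 2.19 and 1.98 CPM in the AXL KO libraries. In both genes the AXL KO libraries lay between the WT libraries. The log2 differences were −0.51 ± 0.81 (SE) for Cd4 and −0.18 ± 0.99 for Cd8a. Leaving out WT replicate 2 moved them to −1.25 and −1.05, with edgeR adjusted p = 0.981 for Cd4, and leaving out WT replicate 1 turned them to 1.22 and 2.48. Cd8b1, the beta chain of the CD8 coreceptor, had 15 and 5 counts in WT and 6 and 8 in AXL KO, and was not tested. Cd247, the zeta chain, had 6 and 8 counts in WT and 5 and 19 in AXL KO. It overlaps genes on the opposite strand, and it was not tested either. The median over the 5 tested genes of this role group was 0.10, and −0.78 without WT replicate 2.

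**Figure D2:**
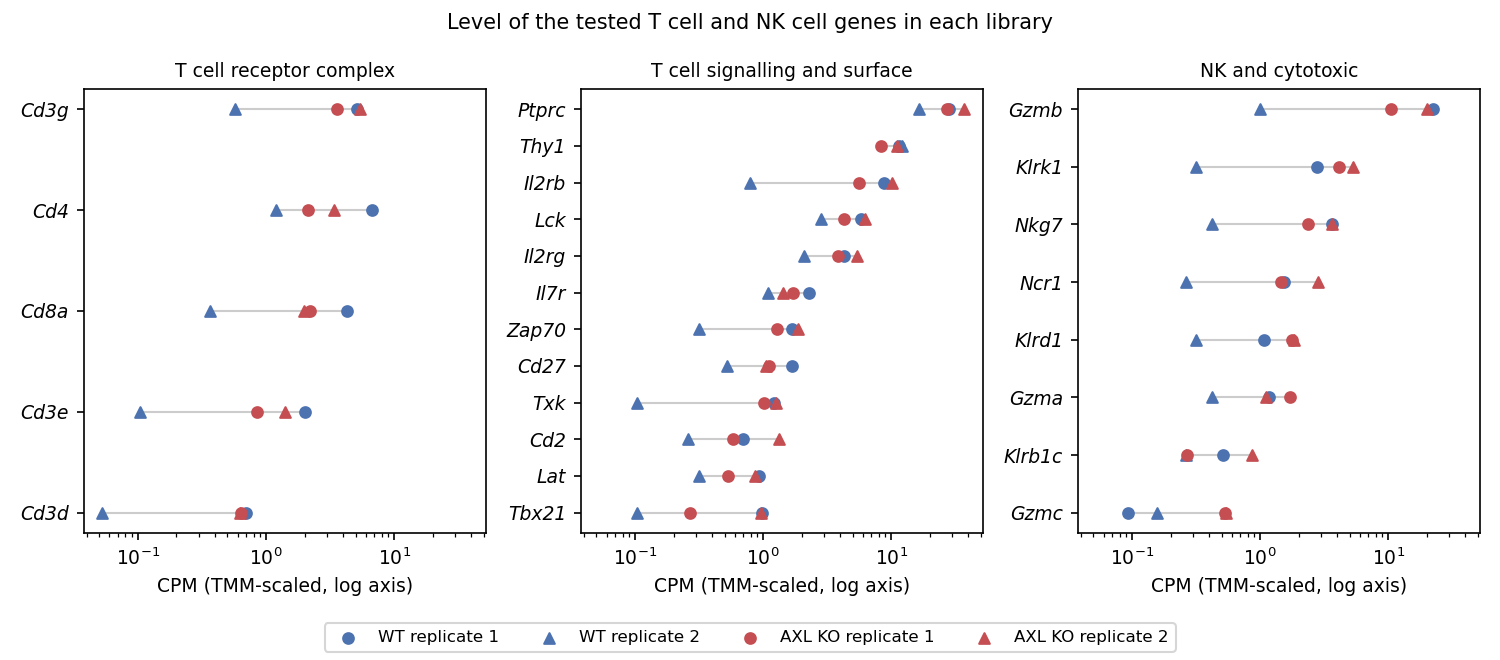
CPM (log axis) of the 25 tested members in each of the 4 libraries, by role group and ordered by mean level. Circles are replicate 1 and triangles replicate 2; the WT replicate 2 triangle is leftmost in 23 of 25 genes, Thy1 and Gzmc being the exceptions.

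Among kinases and adaptors the same library was lowest, by less for Lck than for the others. Lck, the kinase that phosphorylates the CD3 chains, had WT values of 5.84 and 2.83 CPM and AXL KO values of 4.27 and 6.29 CPM, with a log2 difference of 0.29 ± 0.48 (SE). Zap70, which docks on the phosphorylated chains, reached 1.68 and 0.314 CPM in the WT libraries, against 1.28 and 1.86 CPM in the AXL KO libraries. Txk, a TEC-family kinase, had WT values of 1.21 and 0.105 CPM and AXL KO values of 1.01 and 1.26 CPM. The groups overlapped in all 3, and their log2 differences without WT replicate 2 were −0.13, −0.073 and −0.077. Lat, the membrane adaptor, had a log2 difference of 0.18, which was −0.36 without WT replicate 2. Sh2d1a, the adaptor of SLAM receptors, had 3 counts over the 4 libraries.

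Ptprc, Thy1 and Cd2 differed less between the WT libraries than the CD3 chains did. Ptprc (CD45), the phosphatase carried by nearly all leukocytes, reached 28.4 and 16.3 CPM in the WT libraries, against 27.3 and 37.2 CPM in the AXL KO libraries, with a log2 difference of 0.53 ± 0.34 (SE) and 0.19 without WT replicate 2. The level of Cd3d, Cd3e and Cd3g summed, per kilobase of exon, was 1.57 times that of Ptprc in WT replicate 1, 0.259 in WT replicate 2, and 1.11 and 1.15 in AXL KO. WT replicate 2 thus had the lowest CD3 level also relative to CD45. Thy1, a surface protein of T cells that fibroblasts and other stromal cells also carry, had WT values of 11.4 and 12.1 CPM and AXL KO values of 8.27 and 11.1 CPM. It was the only tested member with both AXL KO libraries below both WT libraries, with a log2 difference of −0.27 ± 0.29 (SE) and −0.23 without WT replicate 2. AXL KO replicate 1, its lowest library, also had the lowest fibroblast marker sum (184 CPM against 419 to 593 in the other 3), and the part of these cells in the Thy1 values was not tested. Cd2, an adhesion receptor of T and NK cells, reached 0.701 and 0.262 CPM in the WT libraries, against 0.587 and 1.32 CPM in the AXL KO libraries. Its log2 difference of 1.01 ± 0.72 (SE) was 0.51 without WT replicate 2.

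Costimulatory receptors were scarce. Cd27 had WT values of 1.68 and 0.523 CPM and AXL KO values of 1.12 and 1.05 CPM, with a log2 difference of −0.041 ± 0.65 (SE) and −0.64 without WT replicate 2. Cd28, the main costimulatory receptor of naive T cells, had 8 and 6 counts in WT and 5 and 18 in AXL KO, and its relative Icos had 2 and 5 in WT and 1 and 13 in AXL KO. The scavenger-type receptors Cd5 and Cd6 had 26 and 36 counts over all libraries. These 4 genes were under the filter, and their groups overlapped.

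Of the cytokine receptors, Il2rb separated the WT libraries most. Il2rb, the beta chain shared by the IL-2 and IL-15 receptors, reached 8.83 and 0.785 CPM in the WT libraries, against 5.55 and 10.2 CPM in the AXL KO libraries. The common gamma chain gene Il2rg had WT values of 4.25 and 2.09 CPM and AXL KO values of 3.84 and 5.39 CPM. Il7r, the IL-7 receptor of resting T cells, reached 2.29 and 1.1 CPM in the WT libraries, against 1.71 and 1.44 CPM in the AXL KO libraries. The log2 differences were 0.71 ± 1.01 (SE), 0.54 ± 0.48 and −0.12 ± 0.52. In the fit without WT replicate 2 they were −0.15, 0.13 and −0.55. Per kilobase of exon, the level of Il2rb was 4.2 times that of Il7r in WT replicate 1, 0.777 in WT replicate 2, 3.54 in AXL KO replicate 1 and 7.7 in AXL KO replicate 2.

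The lineage transcription factors had few reads. Foxp3, which defines regulatory T cells, had 2 and 1 counts in WT and 1 and 5 in AXL KO. Tbx21 (T-bet), a regulator of type 1 and cytotoxic programmes, had WT values of 0.981 and 0.105 CPM and AXL KO values of 0.267 and 0.959 CPM, the groups overlapping. Eomes, a related factor of NK cells and memory CD8 T cells, had 2 and 1 counts in WT and 6 and 16 in AXL KO. Its levels were 0.0935 and 0.0523 CPM for WT against 0.32 and 0.48 CPM for AXL KO, so both AXL KO libraries lay higher. No library reached the filter cutoff of 0.495 CPM for Eomes, which was not tested. Over the 12 tested genes of the signalling and surface group the median log2 difference was 0.41, and −0.14 without WT replicate 2.

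**Figure D3:**
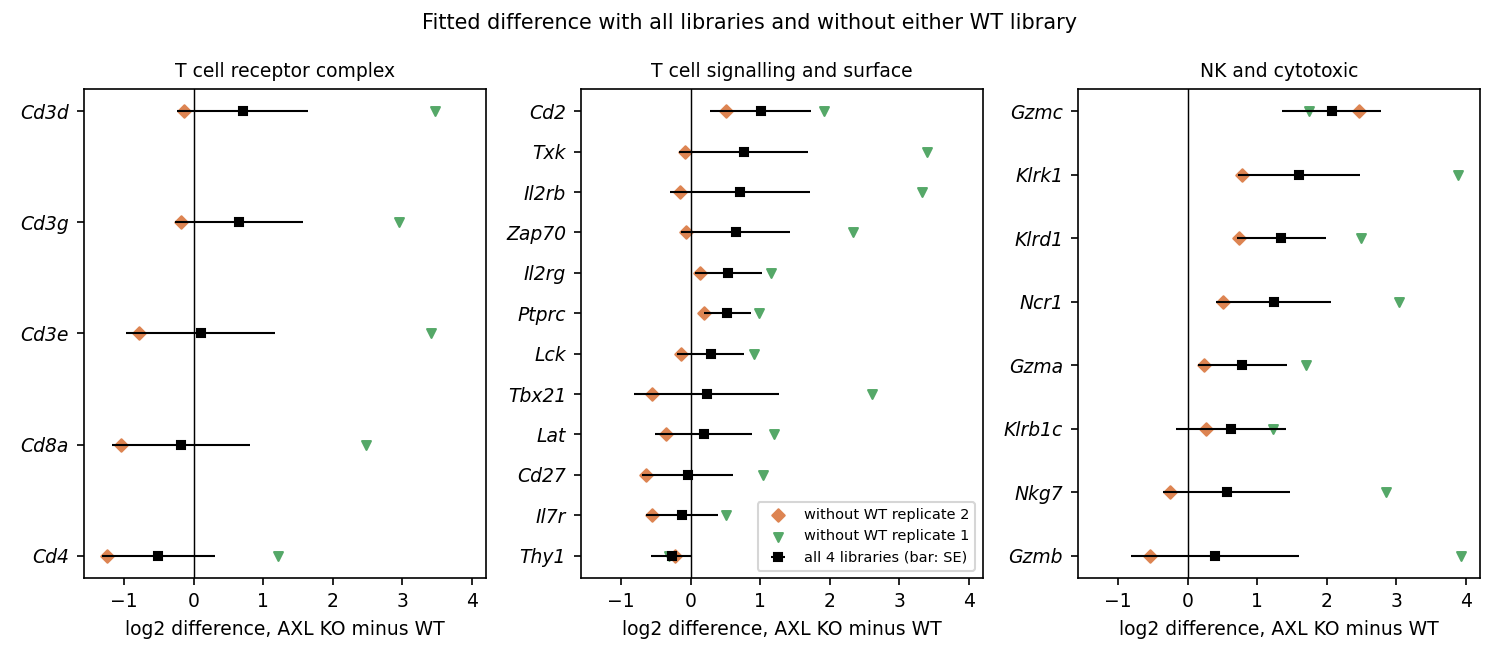
Fitted log2 difference (AXL KO minus WT) of the 25 tested members with all 4 libraries (squares, bar: standard error), without WT replicate 2 (diamonds) and without WT replicate 1 (triangles). Cd4 runs from −1.25 to 1.22 between the fits that leave out a WT library, while Klrk1 (0.78 and 3.89) and Gzmc (2.46 and 1.74) stay above 0 in both.

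The NK receptor genes Klrk1 and Klrd1 had higher values in each AXL KO library than in each WT library, though neither passed the test. They were among the 3 of 25 tested members in that order, a share no higher than the 14.7% of all genes tested. Klrk1 (chromosome 6, 129610323 to 129623864), the activating receptor NKG2D of NK cells and many CD8 T cells, reached 2.76 and 0.314 CPM in the WT libraries, against 4.11 and 5.3 CPM in the AXL KO libraries. The means were 1.54 ± 1.73 CPM for WT against 4.71 ± 0.845 CPM for AXL KO (SD, n = 2 per group), a fitted 3.03-fold difference (log2 1.60 ± 0.88, SE). Klrd1 (CD94) is the partner chain of NKG2 receptors other than NKG2D. It had WT values of 1.07 and 0.314 CPM and AXL KO values of 1.76 and 1.83 CPM. The log2 difference of Klrd1 was 1.35 ± 0.64 (SE). In edgeR the unadjusted p-values of Klrk1 and Klrd1 were 0.126 and 0.0888 and their adjusted p-values 0.9997. With WT replicate 2 left out the log2 differences were 0.78 and 0.74. Without WT replicate 1 that of Klrk1 was 3.89, and the smallest edgeR adjusted p of any tested member in that fit was 0.0788, so 0 members were called, against 134 higher genes of all tested (0.935%). The starts of Klrk1 and Klrd1 lie 32.1 kb apart on opposite strands.

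Other NK genes overlapped between the groups. Ncr1, the activating receptor NKp46, reached 1.54 and 0.262 CPM in the WT libraries, against 1.44 and 2.82 CPM in the AXL KO libraries, with a log2 difference of 1.24 ± 0.83 (SE). Nkg7, a cytotoxic granule membrane protein, had WT values of 3.64 and 0.419 CPM and AXL KO values of 2.35 and 3.66 CPM. Klrb1c, a lectin-like receptor used as a marker of NK cells in several strains, reached 0.514 and 0.262 CPM in the WT libraries, against 0.267 and 0.869 CPM in the AXL KO libraries. Leaving out WT replicate 2 gave log2 differences of 0.50 for Ncr1, −0.26 for Nkg7 and 0.26 for Klrb1c.

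Gzmb was by far the most abundant cytotoxic gene, and perforin reads were nearly lacking. Gzmb, the granzyme that activates caspases in target cells, had WT values of 22.3 and 0.994 CPM and AXL KO values of 10.5 and 19.96 CPM. Its log2 difference was 0.39 ± 1.21 (SE), −0.54 without WT replicate 2 and 3.94 without WT replicate 1. Gzma, a granzyme with trypsin-like specificity, reached 1.17 and 0.419 CPM in the WT libraries, against 1.71 and 1.11 CPM in the AXL KO libraries, again overlapping. Its log2 difference of 0.79 ± 0.64 (SE) was 0.23 without WT replicate 2. Per kilobase of exon the level of Gzmb was 13.4 and 1.66 times that of Gzma in WT, and 4.31 and 12.6 times in AXL KO. Prf1, the pore-forming perforin, had 3 and 2 counts in WT and 5 and 4 in AXL KO. Averaged over the 4 libraries and per kilobase, Gzmb was at 9.36, Thy1 at 3.58, Nkg7 at 2.75 and Cd3g at 1.12 CPM, while Prf1 was at 0.0611 CPM. Gzmb made up 66.2% and 30.6% of the summed NK and cytotoxic level in WT and 44.7% and 54.1% in AXL KO. The sum of the other 10 genes was 11.4 and 2.25 CPM for WT against 13.02 and 16.9 CPM for AXL KO.

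Gzmc was the member with the lowest unadjusted p and did not follow WT replicate 2. This granzyme gene lies 27.6 kb from Gzmb, start to start, in the granzyme cluster of chromosome 14. It had 2 and 3 counts in WT and 10 and 18 in AXL KO, or 0.0935 and 0.157 CPM against 0.534 and 0.539 CPM. The edgeR log2 difference was 2.07 ± 0.71 (SE; unadjusted p = 0.0317, adjusted p = 0.9997). It was 2.46 without WT replicate 2, 1.74 without WT replicate 1, and 2.07 and 2.04 without AXL KO replicates 1 and 2. Gzmc passed the filter only through its 2 AXL KO libraries, which lay just above the cutoff of 0.495 CPM, the 1 tested member to do so. Reads that fit several granzyme genes are also uncertain: the neighbouring Gzmd, Gzme and Gzmf had 0 counts in all libraries, and 23.2% to 28.1% of alignments in a library were set aside as not unique.

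Fasl and Ifng stayed under the filter. Fasl, the death ligand of cytotoxic lymphocytes, had 8 and 0 counts in WT and 9 and 22 in AXL KO, or 0.374 and 0 CPM against 0.48 and 0.659 CPM. Both AXL KO values exceeded both WT values, and 1 of them the filter cutoff. The 0 in WT replicate 2 allows a level of up to 0.157 CPM at its depth, for counting error only. Ifng, the cytokine interferon gamma, had 2 and 0 counts in WT and 2 and 0 in AXL KO. Over the 8 tested NK and cytotoxic genes, all with a positive log2 difference, the median was 1.01. With WT replicate 2 left out it was 0.38, with 6 positive.

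Ratios within a library do not depend on scaling, so members were also set against Cd3g, the CD3 chain with most counts. These ratios were chosen after the levels had been seen. Klrk1 had 0.541 and 0.545 counts per Cd3g count in WT and 1.15 and 0.989 in AXL KO. Cd4 had 1.31 and 2.09 counts per Cd3g count in WT and 0.597 and 0.631 in AXL KO. Klrk1 was thus higher, and Cd4 lower, against Cd3g in both AXL KO libraries, also relative to WT replicate 1 alone. Exact 95% intervals for counting error put the Klrk1 ratio at 0.387 to 0.75 in WT replicate 1 and 0.166 to 1.61 in WT replicate 2, against 0.818 to 1.62 and 0.799 to 1.22 in AXL KO. Those of Cd4 were 1.02 to 1.7 and 0.979 to 4.75 in WT, against 0.393 to 0.896 and 0.494 to 0.803 in AXL KO. WT replicate 2 had 11 Cd3g counts, 6 of Klrk1 and 23 of Cd4, which limits its ratios.

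Of the 24 tested members other than Cd3g, 1 had a higher ratio to it in both AXL KO libraries, Klrk1, against 0.998% of all other genes. The ratio was lower in both for 6, namely Cd4, Cd8a, Lat, Cd27, Tbx21 and Nkg7, against 6.71%. Cd3g in WT replicate 2 was at 11.3% of its WT replicate 1 level, which raises the ratio there for any gene that fell less. The shares of all genes thus depend on the choice of Cd3g and do not show that the Klrk1 pattern is rare. For Nkg7 the ratios were 0.716 and 0.727 in WT and 0.657 and 0.682 in AXL KO, a gap well inside their counting intervals. The gap was also narrow for Tbx21, at 0.182 in WT replicate 2 and 0.179 in AXL KO replicate 2. Cd27 was at 0.33 in WT replicate 1 and 0.313 in AXL KO replicate 1. Lat was at 0.183 in WT replicate 1 and 0.162 in AXL KO replicate 2. For Cd8a the WT replicate 2 ratio was 0.636, with an interval of 0.209 to 1.8, against 0.612 in AXL KO replicate 1. Among all 300 pairs of tested members, the ratio separated the groups in 99 (33.0%), so separation alone is common here. With 2 libraries a group an exact two-sided permutation test cannot go below p = 0.333, and none is given.

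**Figure D4:**
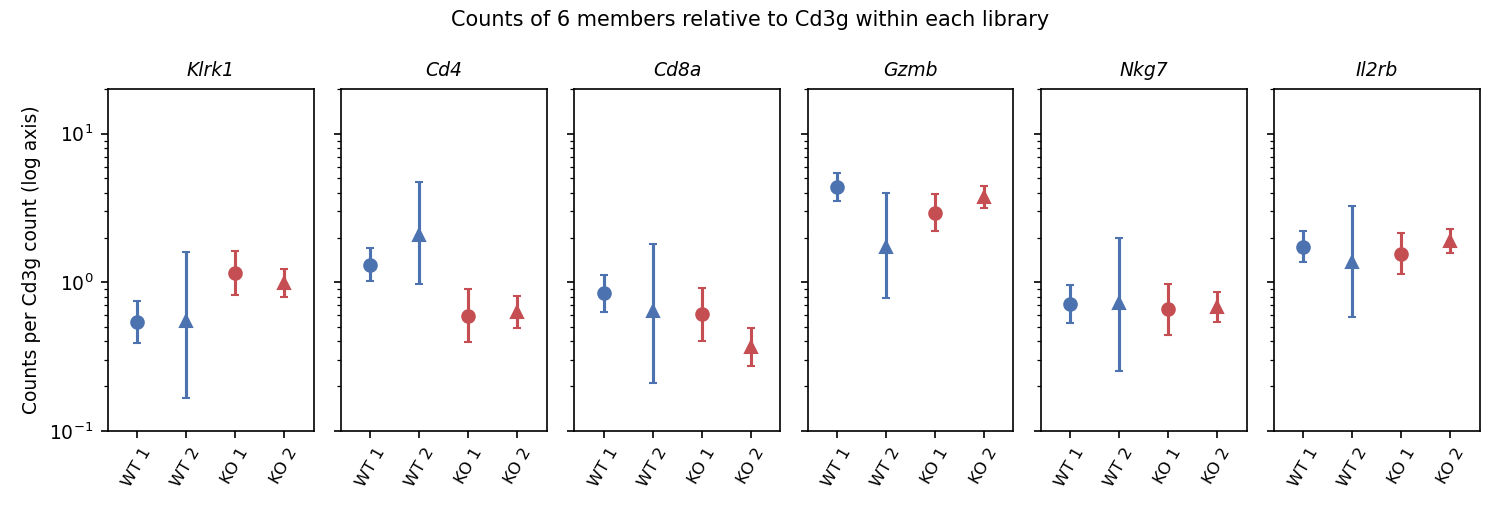
Counts of 6 members per Cd3g count within each library (log axis), with exact 95% intervals for counting error. Klrk1 is at 0.541 and 0.545 in WT and at 1.15 and 0.989 in AXL KO, Cd4 at 1.31 and 2.09 against 0.597 and 0.631, while Il2rb lies between 1.36 and 1.9 in all libraries.

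Further T and NK cell genes followed the members. A list of 65 such genes, 63 of them matched and 47 tested, had 41 positive and 6 negative log2 differences with a median of 0.60, and 0 passed edgeR, with 1 at an unadjusted p under 0.05. Leaving out WT replicate 2 gave 22 positive, with a median of −0.032. WT replicate 2 was lowest for 43 of the 47. The constant regions of the alpha-beta receptor were sparse. Trac had WT values of 0.794 and 0.314 CPM and AXL KO values of 0.534 and 0.39 CPM, and Trbc2 reached 0.514 and 0.157 CPM in the WT libraries, against 0.374 and 0.659 CPM in the AXL KO libraries. Trbc1 had 7 and 1 counts in WT and 5 and 12 in AXL KO.

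The 4 genes of that list with the smallest p were Serpinb9, Klrc1, Cd52 and Fyn. Serpinb9, an inhibitor of granzyme B, had WT values of 53.6 and 34.1 CPM and AXL KO values of 76.7 and 68.5 CPM, with a log2 difference of 0.73 ± 0.27 (SE; edgeR unadjusted p = 0.0399, adjusted p = 0.9997). Klrc1, the inhibitory NKG2A chain that pairs with CD94, reached 0.28 and 0.157 CPM in the WT libraries, against 0.801 and 0.599 CPM in the AXL KO libraries. Its log2 difference of 1.62 ± 0.66 (SE) was 1.27 without WT replicate 2. Cd52, a leukocyte surface peptide, had WT values of 7.29 and 4.34 CPM and AXL KO values of 9.34 and 12.1 CPM. Fyn, a Src-family kinase of T cells and many other cells, reached 26 and 37.3 CPM in the WT libraries, against 18.5 and 23 CPM in the AXL KO libraries. Leaving out WT replicate 2 gave log2 differences of 0.44 for Serpinb9, 0.56 for Cd52 and −0.33 for Fyn. These 4 genes were picked by p, so their groups not overlapping is no further evidence. Over the 47 tested genes of the list, 9 were higher in both AXL KO libraries and 1 was lower, while 37 overlapped, beside the 14.7% and 14.5% of all genes.

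Markers of macrophages and dendritic cells, like the members, were lowest in WT replicate 2. The summed level of 8 macrophage markers was 306 to 519 CPM in WT and 397 to 525 CPM in AXL KO, with no marker at 0. The 6 dendritic cell markers summed to 12.9 to 24.95 CPM in WT and 23.5 to 27.0 CPM in AXL KO, with none at 0. Of these 6, 4 were higher in both AXL KO libraries, against 14.7% of all genes tested. The 6 neutrophil markers summed to 3.09 to 5.09 CPM in WT and 5.55 to 6.32 CPM in AXL KO, with Ly6g at 0 in all libraries. Plasma cell markers, 4 in number, summed to 48.7 to 56.1 CPM in WT and 29.7 to 39.7 CPM in AXL KO, most of it Sdc1, which epithelium also carries, with Mzb1 and Tnfrsf17 at 0 in a library. Lymph node and thymus markers summed to 0.0899 to 0.209 CPM over the 4 libraries, with Ccl19, Madcam1 and Foxn1 at 0 in all. The 12 type I interferon response genes summed to 1000.5 and 57.7 CPM in WT, lowest in replicate 2, and to 1289 and 1450 CPM in AXL KO. Of these 12, 11 were higher in both AXL KO libraries, against the same 14.7% of all genes tested. The part of these differences in the T cell and NK cell values was not tested.

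Markers of non-leukocytes differed by other patterns. The 6 epithelial markers, which do not set tumour cells apart from other epithelium, summed to 3301 to 3887 CPM in WT and 3063 to 3317 CPM in AXL KO. The sums ran from 94.8 to 96.3 and from 81.8 to 111 CPM for endothelial markers, from 419 to 593 and from 184 to 535 CPM for fibroblast markers, and from 58.3 to 121 and from 90.2 to 101 CPM for adipocyte markers. Mast cell markers summed to 1129 to 1195 CPM in WT and 1207 to 1373 CPM in AXL KO, of which nearly all was Kit, a gene mammary epithelium also expresses. As markers of their own cell types, 8 T cell genes summed to 4.55 to 15.5 CPM in WT and 10.8 to 16.4 CPM in AXL KO, with none at 0. The 5 NK cell genes summed to 1.2 to 5.98 and 7.9 to 11.3 CPM, with none at 0 and no overlap between the groups. All 5 are members described above, Klrk1 and Klrd1 among them, so this sum is no further evidence. The sums over the 11 NK and cytotoxic members overlapped (WT 33.7 and 3.24 CPM, AXL KO 23.5 and 36.9 CPM).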

How the data were processed

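Tumour RNA was sequenced in 4 libraries, 2 AXL KO and 2 WT by the sample titles. The deposited files hold 1 raw read count per gene and library. Per the submitters' processing notes the tools include HTSeq 0.5.3, TopHat2 2.0.10, DESeq2 1.4.5 and CASAVA 1.8, and the build is GRCm38. These notes carry no roles or order. The annotation release and strand setting were not found in those sources, so overlapping genes cannot be told apart (5 members have a gene on the opposite strand).

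The 5 summary lines (not in any gene 5.27% to 8.11%, ambiguous 0.635% to 1.85%, not unique 23.2% to 28.1%) were left out. GENCODE M21 gave symbols, positions and exon lengths for 36345 of 38293 identifiers. Genes were filtered with filterByExpr by group, scaled by TMM and tested over all 14330 genes with edgeR 4.0.16 (glmQLFit, glmQLFTest, Benjamini-Hochberg, threshold 0.05). No pair of libraries agreed within sampling noise (chi-square of 30.3 to 151 per degree of freedom).

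Members and lists were chosen with earlier results of these data known. Values are given for members whose groups do not overlap, the 4 most abundant and the 2 with smallest p per role, and the other members by values, log2 differences or counts. Of the further genes, those with the 4 smallest p-values and Trac, Trbc1 and Trbc2 are named. The marker lists were T cell, NK cell, plasma cell, macrophage, neutrophil, dendritic cell, mast cell, epithelial, fibroblast, endothelial, adipocyte, lymph node or thymus, and type I interferon response. A further marker list is not reported here.

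The alternatives tried were scaling by library totals or DESeq2 size factors, no low-count filter, a CPM of 1 in 2 libraries, DESeq2 1.42.0, limma-voom (limma 3.58.1), legacy dispersions, a replicate block and each library left out.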

Additional observations from a re-analysis of the deposited data

How the results depend on the processing

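DESeq2 size factors, library totals and legacy dispersions kept the sign of every group median and of every tested member. Called genes over the whole table were 0 in edgeR (314 at an unadjusted p under 0.05), 16 in DESeq2, and 0 to 216 with 1 library left out, 216 being the count without WT replicate 1. With the stricter filter the T cell receptor complex median turned to −0.035, over 4 genes in place of 5. The replicate numbers pair nothing known, and deviations of same-numbered libraries correlated at −0.045. The replicate block called 0 genes (571 at an unadjusted p under 0.05) and turned Cd8a to 0.47 and Cd27 to 0.15; limma-voom turned them to 0.63 and 0.16. Medians under the block and limma-voom were 0.62 and 1.12 for the T cell receptor complex, 0.46 and 0.60 for signalling and surface, 1.43 and 1.58 for NK and cytotoxic, and 0.90 and 1.05 for the tested members. The cause was not tested.

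With 1 library left out, the lone library of a group being assumed to vary like the other group, medians ran from −0.78 to 2.96 for the T cell receptor complex, −0.14 to 1.17 for signalling and surface, 0.38 to 2.67 for NK and cytotoxic, −0.14 to 2.33 for the tested members and −0.032 to 1.62 for the further genes. Members whose sign changed ran from −0.14 to 3.47 (Cd3d), −0.78 to 3.41 (Cd3e), −0.17 to 2.96 (Cd3g), −1.25 to 1.22 (Cd4), −1.05 to 2.48 (Cd8a), −0.13 to 0.91 (Lck), −0.073 to 2.33 (Zap70), −0.36 to 1.20 (Lat), −0.077 to 3.4 (Txk), −0.64 to 1.04 (Cd27), −0.15 to 3.33 (Il2rb), −0.55 to 0.50 (Il7r), −1.05 to 2.61 (Tbx21), −0.56 to 1.22 (Klrb1c), −0.26 to 2.85 (Nkg7) and −0.54 to 3.94 (Gzmb). Depth limits 7 tested members with under 100 counts in all.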
